A study of Mus musculus with 7 samples.

Results

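Cadherins and non-clustered protocadherins are calcium-dependent adhesion molecules, and the genes that encode them were examined in peak lists of H3K27me3, the histone mark of Polycomb repressive complex 2, from mouse epidermal progenitor cells. The genes were all RefSeq protein-coding genes whose whole symbol is Cdh or Pcdh followed by digits. This gave 34 genes (23 Cdh and 11 Pcdh) of 21631 protein-coding genes on the autosomes and the X chromosome. Of these, 22 had a transcription start, with its strand, in the RefSeq promoter table of build GRCm38.p6 (the same build as mm10), and 12 did not: Cdh1, Cdh2, Cdh3, Cdh4, Cdh5, Cdh11, Cdh13, Cdh16, Cdh17, Cdh19, Pcdh1 and Pcdh12.

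The cells came from back skin of mice at postnatal day 0 and were sorted as EpCAM-positive, Sca1-positive cells with high alpha6-integrin, a gate for the basal interfollicular epidermis. Control cells were compared with Ring1a/b 2KO cells, which lack Ring1a and Ring1b, the ubiquitin ligases of Polycomb repressive complex 1; the labels name neither the driver of the deletion nor the strain. Each genotype had 2 labelled immunoprecipitation libraries and 1 deposited list of peaks, so replicate error could not be estimated, nothing was tested between genotypes, and all values below describe these lists. The titles of the 2KO libraries name H3K27me1, whereas their antibody field and the list name H3K27me3, and the list was read as H3K27me3.

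In an epithelium, classical cadherins hold neighbouring cells together at adherens junctions, where their cytoplasmic tails bind catenins. E-cadherin (Cdh1) and P-cadherin (Cdh3) do this in the basal epidermis. N-cadherin (Cdh2) and most type II cadherins serve in the nervous system or mesenchyme, and the delta-protocadherins act mainly in neurons. Polycomb complexes hold many developmental genes of other lineages silent, typically at promoters rich in CG dinucleotides.

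A gene counted as marked where its start or end, extended by 1 kb, shared at least 1 bp with a peak. The control list held 3631 peaks (median width 4.76 kb) and the 2KO list 2340 (median 5.51 kb). The mark can be present where no peak was called, and sequencing depth is unknown. None of 8 genes of basal epidermal progenitors (Krt5, Krt14, Itga6, Itgb4, Trp63, Col17a1, Epcam and Ly6a) was marked in either list. The Wilson interval of this count reaches 32.4% for each list and holds the share of all protein-coding genes given below. The count therefore cannot check the labelled cell type. Of 24 genes of other cell types, 14 were marked in the control list. By cell type these were 3 of 4 neuronal genes, 5 of 6 genes of dermal fibroblasts, 3 of 5 of endothelium, 3 of 5 of melanocytes and Schwann cells, and 0 of 4 of immune cells. In the 2KO list 10 of the 24 were marked: 2 of 4 neuronal, 2 of 6 fibroblast, 3 of 5 endothelial, 1 of 5 melanocyte and Schwann cell, and 2 of 4 immune genes (Cd207 and Cd3g, in the 2KO list alone). For the whole annotation the control list marked 10.1% of protein-coding genes and the 2KO list 6.63%. What part such cells have in the results was not tested. The lists come from bulk sorted cells and do not separate a mark in all cells from a mark in some.

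Of the 34 genes, 14 were marked in the control list (41.2%, 95% Wilson interval 26.4 to 57.8), where the share over all protein-coding genes was 10.1%. The intervals cover counting error only. In the 2KO list 10 were marked (29.4%, 16.8 to 46.2), beside 6.63% of all genes. All 10 were also marked in the control list, so 10 of 34 genes (29.4%) were marked in both, beside 5.59% of all genes. Over all protein-coding genes, 1210 of the 1435 marked in the 2KO list were also marked in the control list. Only the control list marked 4 genes (all genes 4.48%), and only the 2KO list marked 0 (all genes 1.04%). Of the control-marked cadherin and protocadherin genes, 10 of 14 were also marked in the 2KO list (71.4%, 45.4 to 88.3); over all control-marked genes the share was 55.5%, which lies inside that interval. The 1 kb limit separated Cdh26, 0.723 kb from its nearest control peak and just inside it, from Pcdh17 in the 2KO list, 1.88 kb away and just outside. When a peak was required at the gene end itself, with no window, 2 genes were marked by the control list alone, Pcdh1 and Pcdh10. This setting removed Cdh6, Cdh26, Pcdh17 and Pcdh19 from the control-marked genes, and Cdh6 and Pcdh10 from the 2KO-marked genes. Pcdh10 thus counted as marked in both lists only with a window.

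**Figure D1:**
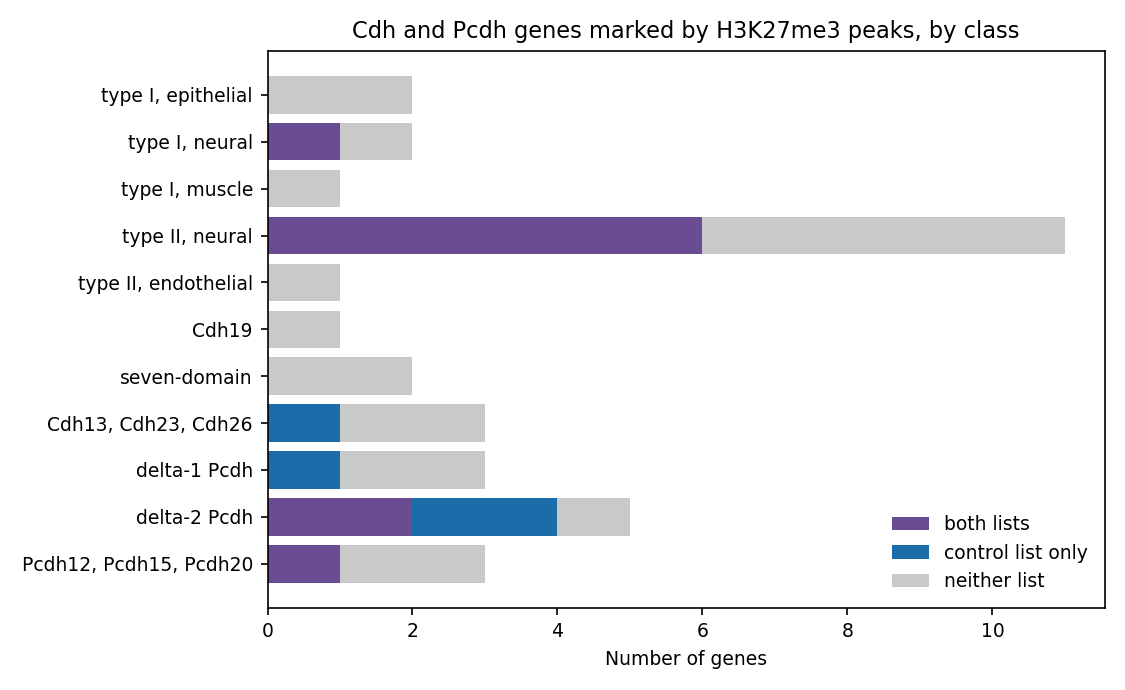
Number of cadherin and protocadherin genes (x axis) in each class (y axis) that were marked in both lists, in the control list only or in neither. The neural type II cadherins, 6 of 11, and the delta-2 protocadherins, 4 of 5, hold most of the marked genes, and neither epithelial type I cadherin was marked.

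Classical and type II cadherins were sorted into epithelial and neural classes from general knowledge of where they act. The class called neural includes genes that also act in mesenchyme, muscle or kidney, among them Cdh2, Cdh6 and Cdh11. The epithelial classical cadherins, Cdh1 and Cdh3, carried no called peak. Cdh1 (chromosome 8, 106603350 to 106670247) lay 265.7 kb from its nearest control peak and 265.6 kb from its nearest 2KO peak. Cdh3 (chromosome 8, 106510852 to 106556911), which lies next to it, was 173.2 and 173.1 kb away. By contrast, 7 of 13 neural classical cadherins were marked in the control list (53.8%, 29.1 to 76.8), and the same 7 in the 2KO list: Cdh2, Cdh6, Cdh8, Cdh10, Cdh11, Cdh20 and Cdh22. With 0 of 2 epithelial genes the Wilson interval reaches 65.8%, so the intervals of the epithelial and neural genes overlap and the counts do not separate the classes.

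Because Polycomb marks are known to favour promoters rich in CG dinucleotides, the sequence before the listed starts was examined. The 250 bases before the start are shown for genes that differ in marking, 5-prime to 3-prime on the strand of the gene, from RefSeq (GRCm38.p6), with every CG in capitals; CG reads the same on both strands. Cdh22 (chr2:165234738-165234987, minus strand), Cdh20 (chr1:104768270-104768519, plus strand) and Cdh10 (chr15:18820079-18820328, plus strand) stand for the neural cadherins marked over the start in both lists, from most to fewest CG.
Cdh22: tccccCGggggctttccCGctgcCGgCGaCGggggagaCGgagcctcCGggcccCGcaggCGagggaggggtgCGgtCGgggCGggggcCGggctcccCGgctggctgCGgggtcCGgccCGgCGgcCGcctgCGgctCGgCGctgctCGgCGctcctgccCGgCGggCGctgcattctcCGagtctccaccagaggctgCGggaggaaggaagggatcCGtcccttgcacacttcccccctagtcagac
Cdh20: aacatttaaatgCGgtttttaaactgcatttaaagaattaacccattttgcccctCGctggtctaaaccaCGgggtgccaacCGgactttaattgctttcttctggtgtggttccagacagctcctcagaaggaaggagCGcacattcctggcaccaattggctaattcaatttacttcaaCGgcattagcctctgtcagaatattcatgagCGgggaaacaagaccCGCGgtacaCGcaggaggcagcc
Cdh10: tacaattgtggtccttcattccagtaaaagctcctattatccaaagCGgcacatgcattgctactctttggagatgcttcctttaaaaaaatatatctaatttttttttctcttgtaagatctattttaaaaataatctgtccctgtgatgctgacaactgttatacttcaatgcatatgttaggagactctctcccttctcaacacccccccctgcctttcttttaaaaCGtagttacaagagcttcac
Pcdh10 (chr3:45378148-45378397, plus strand) and Pcdh8 (chr14:79771313-79771562, minus strand) stand for starts under a control peak and not under a 2KO peak. Pcdh17 (chr14:84443313-84443562, plus strand) has a control peak that begins just after the start.
Pcdh10: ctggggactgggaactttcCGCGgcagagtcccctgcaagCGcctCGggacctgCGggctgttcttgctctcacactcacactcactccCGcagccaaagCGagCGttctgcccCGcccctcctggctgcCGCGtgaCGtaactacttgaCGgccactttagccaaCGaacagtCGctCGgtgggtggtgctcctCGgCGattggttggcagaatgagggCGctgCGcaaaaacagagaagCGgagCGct
Pcdh8: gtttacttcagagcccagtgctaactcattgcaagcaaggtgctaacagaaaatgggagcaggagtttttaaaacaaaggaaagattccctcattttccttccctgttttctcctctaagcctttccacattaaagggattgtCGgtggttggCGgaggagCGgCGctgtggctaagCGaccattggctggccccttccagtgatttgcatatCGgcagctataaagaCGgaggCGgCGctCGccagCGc
Pcdh17: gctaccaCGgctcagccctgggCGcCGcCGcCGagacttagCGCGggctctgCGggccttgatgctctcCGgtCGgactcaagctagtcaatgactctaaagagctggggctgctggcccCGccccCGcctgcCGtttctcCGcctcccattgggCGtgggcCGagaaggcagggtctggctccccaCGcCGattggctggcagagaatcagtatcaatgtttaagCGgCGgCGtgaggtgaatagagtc
Cdh24 (chr14:54641365-54641614, minus strand) and Pcdh18 (chr3:49757317-49757566, minus strand) are the relatives with the most CG among those marked in neither list.
Cdh24: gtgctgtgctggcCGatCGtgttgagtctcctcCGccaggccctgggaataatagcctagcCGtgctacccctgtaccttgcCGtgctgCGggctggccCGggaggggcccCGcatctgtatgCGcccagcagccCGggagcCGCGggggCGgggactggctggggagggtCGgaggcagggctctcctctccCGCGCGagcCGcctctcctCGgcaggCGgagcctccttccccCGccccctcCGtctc
Pcdh18: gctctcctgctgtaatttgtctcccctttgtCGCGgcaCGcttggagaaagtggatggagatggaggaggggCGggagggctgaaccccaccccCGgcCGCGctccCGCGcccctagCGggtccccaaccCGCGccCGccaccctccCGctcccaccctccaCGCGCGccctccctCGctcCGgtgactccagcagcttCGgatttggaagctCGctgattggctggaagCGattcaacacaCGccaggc

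In these 250 bases Cdh22 had 30 CG, a number that 7.27% of 17274 promoters of the same length reached, and Cdh20 had 10, reached by 50.3%. Cdh10 had 2, reached by 83.9%. Pcdh10 had 22, Pcdh17 21 and Pcdh8 11, reached by 19.05, 21.2 and 47.8%. The unmarked Cdh24 and Pcdh18 had 22 and 23, reached by 19.05 and 16.9%. They are shown because they had the most CG of the 11 unmarked genes with a listed start, chosen after their values were seen; the median of these 11 was 7, and 7 of them had 8 or fewer. The listed start of Cdh10 lies 1.46 kb inside its gene model, so this window is not the whole promoter region under its peak.

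Among the neural type I cadherins, Cdh2, which encodes the N-cadherin of neural tissue, muscle and mesenchyme, was marked at its higher-coordinate end (chromosome 18). The control peak spanned 16804537 to 16812245 (7.71 kb) and the 2KO peak 16804352 to 16815800 (11.4 kb). The 2KO peak covered 100.0% of the control peak and reached 3555 bp beyond it on the side outside the gene. Cdh4, which encodes the R-cadherin of retina and brain, lay 120.2 kb from a control peak and 200.5 kb from a 2KO peak.

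The marked type II cadherins had peaks of differing width. Cdh22, a cadherin of brain and pituitary on chromosome 2, was the widest. It had control peaks at both ends, 18.7 kb over the 5-prime end (165229377 to 165248054) and 14.0 kb over the 3-prime end (165106285 to 165120333). The corresponding 2KO peaks measured 17.4 kb and 8.15 kb. Thus 93.3% of the control peak at the 5-prime end lay under 2KO peaks, compared with 42.6% of that at the 3-prime end. Inside Cdh22 the control list held further peaks of 5.24, 15.0 and 8.26 kb. Of these, the first and the 15.0 kb peak had 0% of their bases under 2KO peaks, and the 8.26 kb peak had 71.0%. The 2KO list in turn had a 7003 bp peak inside the gene with 0% of its bases under control peaks. Cdh22 was therefore called in both lists at both ends, with a different set of peaks in its body.

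Cdh11, a cadherin of mesenchyme and brain, had peaks of 8.82 kb in the control and 8.96 kb in the 2KO list at its higher-coordinate end (chromosome 8, 102781059 to 102789879 in the control list). Their edges differed by 388 and 246 bp. Cdh8, a cadherin of brain circuits (chromosome 8), had 6.37 and 7.72 kb over its 5-prime end. Cdh20 (chromosome 1) had 5.82 and 6.61 kb, and Cdh6, a cadherin of kidney and nervous system (chromosome 15), 5.45 and 6.05 kb. Cdh10, a synaptic cadherin (chromosome 15), had the narrowest peaks of the neural genes, 2.36 and 3.76 kb, and only 14.5% of all control peaks were narrower than the former. At Cdh2, Cdh6, Cdh8 and Cdh10 the 2KO peak contained the whole control peak, and at Cdh11 and Cdh20 it covered 97.2 and 97.4% of it.

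The other 6 neural classical cadherins, Cdh4, Cdh7, Cdh9, Cdh12, Cdh18 and Cdh24, were marked in neither list. Marked and unmarked relatives shared chromosomes. On chromosome 15 the order over 10.4 Mb was Cdh6, Cdh9, Cdh10, Cdh12 and Cdh18, and Cdh6 and Cdh10 were marked. Cdh9 lay 1961 kb, Cdh12 1628 kb and Cdh18 2831 kb from the nearest control peak. On chromosome 1, Cdh20 was marked, whereas Cdh7 and Cdh19, which encodes a cadherin of Schwann cells, lay 4137 and 5043 kb from a control peak. The listed starts of Cdh12 and Cdh18 lie 662.6 and 487.6 kb inside their gene models, and no peak of either list was called there.

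**Figure D2:**
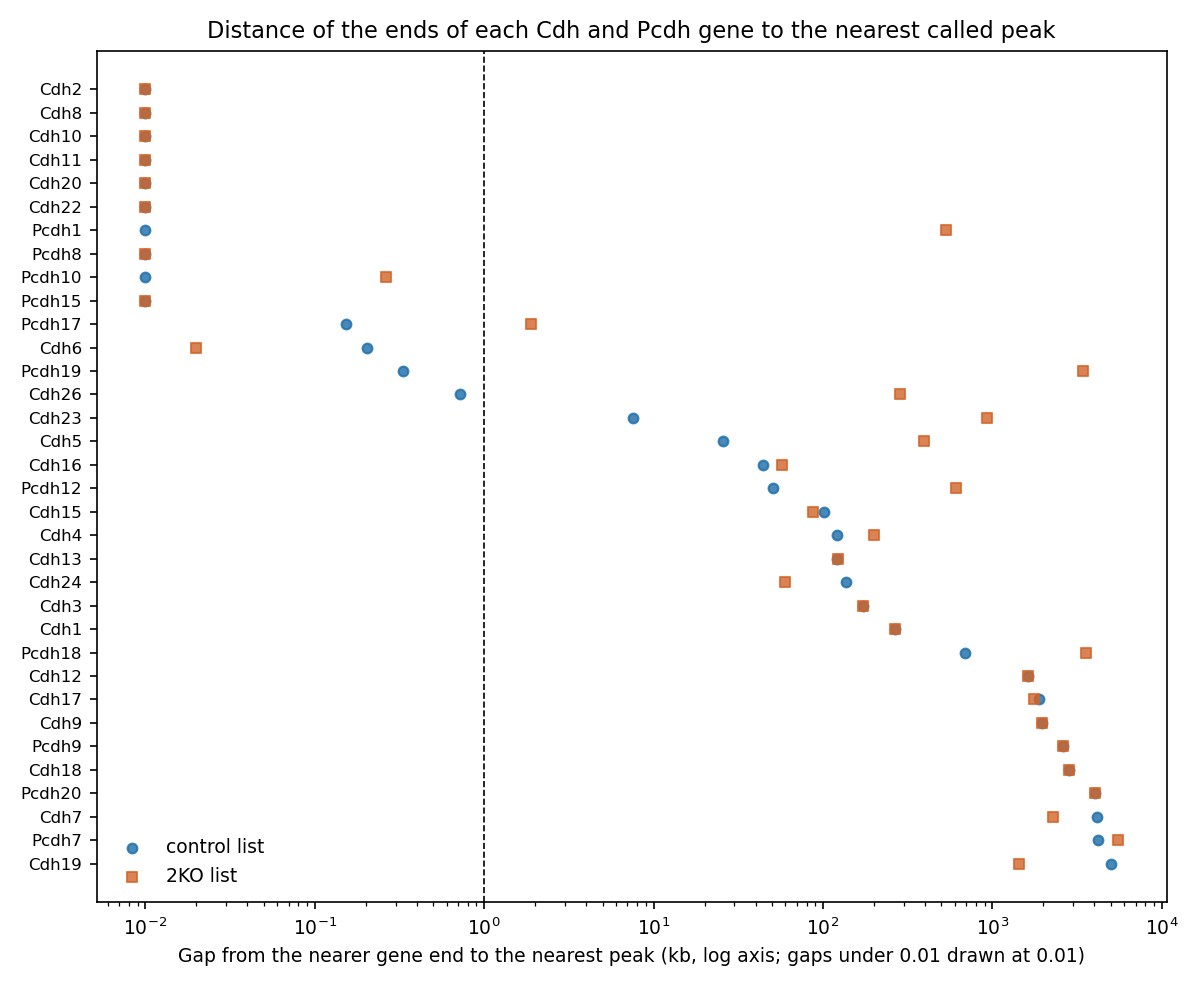
Gap in kb (log axis) from the nearer end of each of the 34 genes (y axis) to the nearest control peak (circles) and 2KO peak (squares), ordered by the control gap; the dashed line is the 1 kb limit. Circles of 14 genes lie within the limit, and the other 20 range from 7.54 kb for Cdh23 to 5043 kb for Cdh19.

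Among the remaining cadherins, only Cdh26 was marked. Its control peak (chromosome 2, 178431239 to 178433563, 2.33 kb) began 724 bp inside the gene and met no 2KO peak; the nearest 2KO peak was 284.7 kb away. When at least 500 bp of the window at a gene end had to lie under peaks, Cdh26 was no longer counted. Cdh23, which encodes a component of the tip links of inner ear hair cells, had a 4.33 kb control peak inside the gene, 7.51 kb downstream of its listed start, and none in the 2KO list. Cdh5, the VE-cadherin of endothelium, lay 25.7 kb from a control peak and 391.9 kb from a 2KO peak. Cdh13, Cdh15 (M-cadherin of muscle), Cdh16 (kidney cadherin) and Cdh17 (liver-intestine cadherin) were also marked in neither list, at 121.0, 100.8, 44.1 and 1895 kb from a control peak.

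The delta-2 protocadherins Pcdh8, Pcdh10, Pcdh17 and Pcdh19 were marked in the control list, 4 of 5 genes (80.0%, 37.6 to 96.4), and Pcdh18 was not. They encode neuronal adhesion proteins, and PCDH19 is known for its role in an epilepsy. In the 2KO list 2 of these genes were marked, Pcdh8 and Pcdh10, each by a peak that covered less than the control peak. At Pcdh8 (chromosome 14) an 11.1 kb control peak (79764587 to 79775673) spanned the whole gene, and the 2KO peak measured 5.40 kb (79765623 to 79771017). At Pcdh10 (chromosome 3) the widths were 9.72 kb (45374423 to 45384138) and 4.58 kb (45378662 to 45383245). The 2KO peaks lay wholly inside the control peaks and covered 48.7 and 47.2% of them.

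Pcdh17 (chromosome 14) had a 7.41 kb control peak (84443716 to 84451128), of which 45.6% lay under a 3.38 kb 2KO peak (84445445 to 84448827). Because this 2KO peak began 1882 bp inside the gene, Pcdh17 counted as marked in the control list only; with a window of 5 kb it counted in both. Pcdh19 (chromosome X) had a 2.15 kb control peak before its start and a 9.14 kb control peak inside the gene, and its nearest 2KO peak 3406 kb from a gene end. The delta-2 genes thus ranged from no 2KO peak to a 2KO peak inside the control peak.

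Of the delta-1 protocadherins, Pcdh1, Pcdh7 and Pcdh9, only Pcdh1 was marked. Its 8.92 kb control peak (chromosome 18, 38207585 to 38216503) lay over the higher-coordinate end and met no 2KO peak, with the nearest 528.9 kb away. Pcdh7 and Pcdh9, adhesion genes of neurons, lay 4225 and 2624 kb from a control peak. Pcdh15, which encodes the partner of cadherin 23 in tip links, was marked in both lists at the 5-prime end of its 1554 kb gene model, by peaks of 7.53 and 10.7 kb (chromosome 10, 73095250 to 73102776 and 73093447 to 73104175). The start listed in the promoter table lies 725.6 kb further into this gene, and the nearest control peak was 719.1 kb from it. Pcdh12, a gene of endothelium, and Pcdh20 were marked in neither list.

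**Figure D3:**
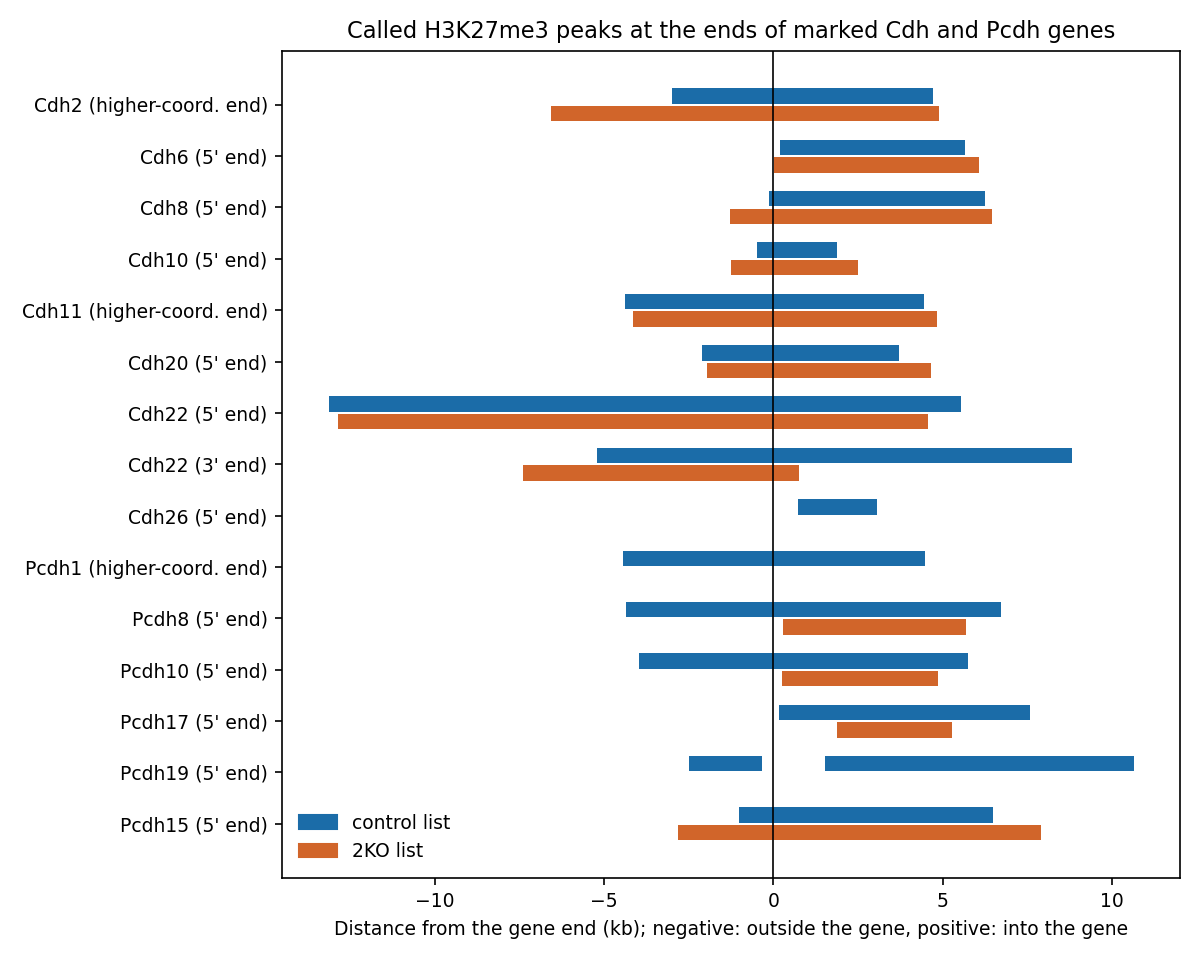
Position of the control peaks (upper bars) and 2KO peaks (lower bars) of the 14 marked genes, in kb from the gene end that they met; negative values lie outside the gene and positive values inside it. Where the strand was not in the promoter table, the higher-coordinate end is the reference. The 2KO bars of Pcdh8, Pcdh10, Pcdh17 and Cdh6 begin inside the gene, the last by 0.021 kb, and those of Cdh2, Cdh8, Cdh10, Cdh11, Cdh20, Cdh22 and Pcdh15 cross its end.

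The peaks were also placed relative to the listed transcription starts. Among the marked neural cadherins with a listed start (Cdh6, Cdh8, Cdh10, Cdh20 and Cdh22), the start lay under a peak in both lists for 5 of 5. Among the 4 marked delta-2 protocadherins, the start lay under a control peak for 2 (Pcdh8 and Pcdh10) and under a 2KO peak for 0. Over all 1633 control-marked genes with a listed start, 78% had one under a control peak, 41.9% under a 2KO peak and 41.2% under peaks of both lists. Counted over every gene with a listed start, marked or not, the start lay under a control peak for 7 of 22 cadherin and protocadherin genes and under a 2KO peak for 5, beside 7.87 and 4.65% of 17274 protein-coding genes. Of the 1360 protein-coding genes with a start under a control peak, 51.9% also had one under a 2KO peak. For the cadherin and protocadherin genes this held for 5 of 7. The classes hold few genes, so their counts are a description, with no test.

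At Pcdh10 the control peak reached from 3975 bp upstream to 5740 bp downstream of the start, and the 2KO peak from 264 to 4847 bp downstream. At Pcdh8 the control peak reached from 4361 bp upstream to 6725 bp downstream, and the 2KO peak from 295 to 5689 bp downstream. The 2KO list thus held no called bases next to these starts on the upstream side. At Pcdh17 the control peak began 153 bp downstream of the start. At Pcdh19 the start lay in a gap between a control peak ending 382 bp upstream and another beginning 1474 bp downstream. By contrast, the peaks of Cdh20 reached from 2287 bp upstream to 3534 bp downstream in the control list and from 2137 to 4474 bp in the 2KO list. At Cdh8 the upstream edge lay at 1323 bp in the control and 2472 bp in the 2KO list. How far a called edge moves between libraries of 1 genotype is not known from these lists. The starts of Pcdh8 and Pcdh10 lie 294 and 263 bp outside the nearest 2KO peak, so their position outside it rests on edges of unknown precision.

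**Figure D4:**
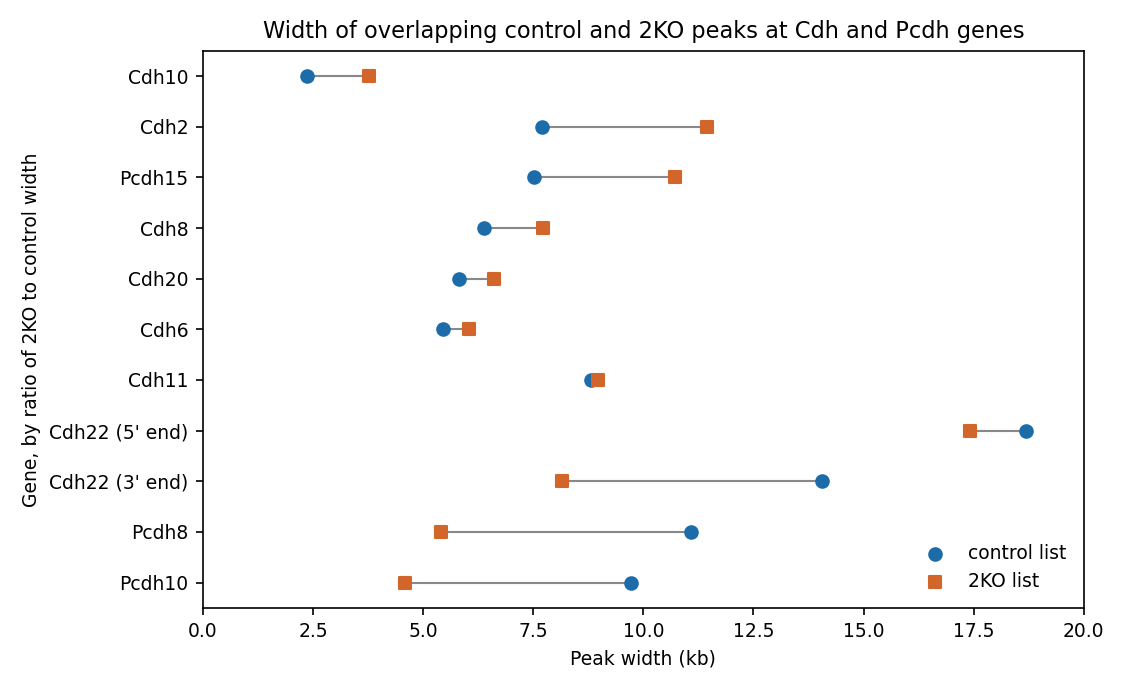
Width in kb (x axis) of each overlapping pair of control (circles) and 2KO (squares) peaks at genes marked in both lists, ordered by the ratio of 2KO to control width. Squares lie to the right of circles in 7 of 11 pairs, and Pcdh8, Pcdh10 and the 3-prime end of Cdh22 have the narrowest 2KO peaks relative to control.

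Over the 11 overlapping pairs of peaks at genes marked in both lists, the 2KO peak was wider in 7 (63.6%), beside 55.3% of 1138 such pairs at all protein-coding genes. At the neural cadherins it was wider in 6 of 8 pairs, with ratios of 2KO to control width from 0.580 at the 3-prime end of Cdh22 to 1.59 at Cdh10. At the delta-2 protocadherins the ratios were 0.487 for Pcdh8 and 0.472 for Pcdh10. The ratio was 1.43 at Pcdh15. Counted by bases, 67.9% of the 118.4 kb under the 15 control peaks at these genes also lay under 2KO peaks. As a median over genes, the share was 84.4% for the 14 control-marked cadherin and protocadherin genes, beside 56.2% over all control-marked genes. For the control-marked neural cadherins this median was 100.0%, and for the delta-2 genes it was 46.4%. The pooled share of 67.9% was not computed over all genes. A width here is a called length, which also depends on depth and on the caller's threshold.

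Over the 300 bases around the first listed start (250 before and 50 after), the median number of CG was 18 for 11 control-marked cadherin and protocadherin genes (range 2 to 38) and 11 for 11 genes marked in neither list (range 4 to 30). Over all genes the medians were 18 for 1633 control-marked genes and 12 for 15641 others. The ranges of the marked and unmarked groups overlapped over most of their length. Among the neural cadherins alone the medians were 18 (5 marked) and 12 (5 unmarked), the latter being the value of Cdh18. The listed starts of the unmarked Cdh12 and Cdh18 lie 662.6 and 487.6 kb inside their gene models. That of the marked Pcdh15 lies 725.6 kb inside. These 3 windows are thus far from the gene ends scored for marking. The CG counts are a description, with no test.

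**Figure D5:**
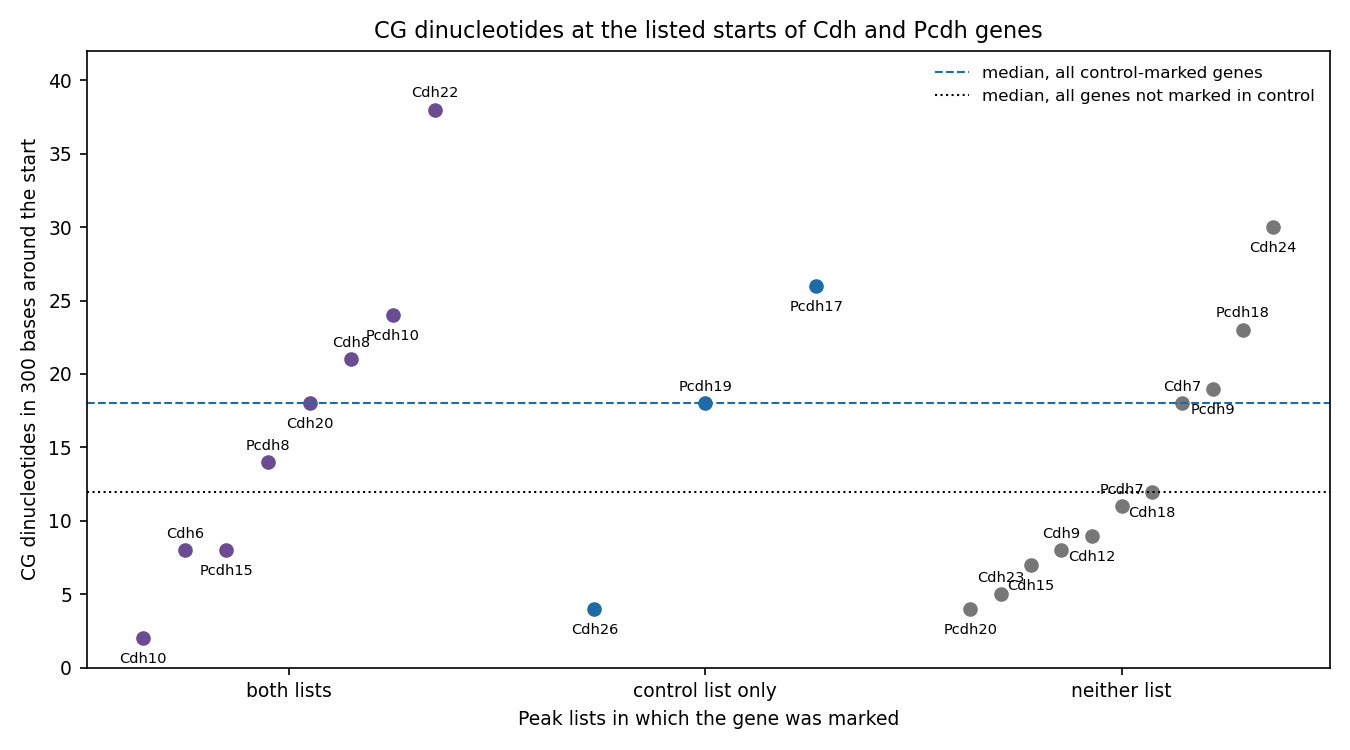
CG dinucleotides in the 300 bases around the first listed start (y axis) of 22 genes, by the peak lists in which each was marked (x axis); points are single genes. The dashed and dotted lines are the medians of all control-marked genes, 18, and of all genes not marked in the control list, 12. Cdh24 and Pcdh18, marked in neither list, lie above the dashed line, and Cdh10, marked in both, lies below the dotted line.

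Partners of the cadherins were counted from lists of junction genes. Of 13 catenins and related armadillo proteins, which link cadherin tails to the cytoskeleton, 2 were marked in the control list and 0 in the 2KO list. These were Ctnnd2, which encodes the delta-catenin of neurons (6.24 kb), and Pkp2, a plakophilin gene (2.63 kb); Ctnnb1, Ctnna1, Ctnnd1 and Jup were marked in neither. None of 8 desmosomal cadherin genes and none of 5 nectin and afadin genes was marked in either list. The Wilson intervals reach 32.4% for the desmosomal genes and 43.4% for the nectin and afadin genes. Both hold the shares of all protein-coding genes, 10.1% (control) and 6.63% (2KO). The counts thus do not separate these genes from protein-coding genes in general. Among 19 atypical cadherin genes 8 were marked in the control list (42.1%, 23.1 to 63.7) and 4 of these in both. Those in both were Celsr3, Clstn2, Dchs2 and Ret, and those in the control list only were Cdhr2, Dchs1, Fat3 and Pcdh11x. Celsr3, an adhesion receptor of axon tracts, had 6.41 and 10.6 kb, and Dchs2 9.33 and 6.39 kb. Fat3, an atypical cadherin of neurons (7.54 kb), and Pcdh11x, a delta-1 protocadherin outside the naming rule (4.74 kb), had a control peak and no 2KO peak.

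Of 6 genes for transcription factors that can repress Cdh1, 4 were marked in the control list (66.7%, 30.0 to 90.3), beside 10.1% of all protein-coding genes. Twist1 had 26.0 kb under control and 10.6 kb under 2KO peaks, Zeb2 17.4 and 6.59 kb, and Zeb1 7.45 and 11.7 kb. Snai1 had a control peak of 4.92 kb and no 2KO peak, and Snai2 and Tcf3 were marked in neither list. Of these 6 genes, 3 were marked in both lists, beside 5.59% of all protein-coding genes. Whether the marks at these genes bear on Cdh1, itself unmarked, was not tested. Over the 51 genes of these partner lists, 14 were marked in the control list (27.5%, 17.1 to 40.9) and 7 of them in both (13.7%), beside 10.1 and 5.59% of all protein-coding genes. The catenin share of 15.4% has an interval of 4.33 to 42.2, which holds the share of all genes.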

How the data were processed

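Chromatin immunoprecipitation for H3K27me3 was sequenced in control and Ring1a/b 2KO cells (2 libraries each). Bowtie2 2.3.3.1, SAMtools 1.9 and build mm10 are named in the submitters' processing notes. For each genotype the authors deposited 1 list with chromosome, start and end of each peak and no score. Not given in the sources used here are the caller, its cut-off, any use of input and any pooling of libraries. Input and Eed cKO libraries were not analysed here.

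Peak starts, taken as 0-based, were converted to 1-based positions. Genes, starts and sequences came from RefSeq (GRCm38.p6). Genotypes follow the sample titles, and the mark of the 2KO libraries follows their antibody field. A gene was marked by a peak within 1 kb of its start or end; shares have 95% Wilson intervals. Python 3.11.15, numpy 2.4.6, pandas 2.3.3, scipy 1.17.1 and matplotlib 3.10.9 were used. Every gene fitting the naming rule is accounted for, and other genes are named from the partner and marker lists. The genes and lists were chosen with earlier results of these data known. The code of the marking rule was tested on simulated data: 200 of 200 genes with a planted peak inside the window were found, and 0 of 100 with a peak outside it. The peaks were planted by the same 1 kb limit at isolated genes. The result shows that the code follows the rule and does not bear on the precision of called edges. Alternatives covered the window, the part of the gene, peak width, numbers of peaks, merging and the overlap required; use of the listed start was chosen after seeing the data.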

Additional observations from a re-analysis of the deposited data

How the results depend on the processing

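No paired analysis was possible because the files hold 1 list per genotype and no values per library, so leaving out a replicate was not possible either. Of 81 values recomputed under 9 settings, 74 stayed within 1.5 times the count given or within its interval. These 74 include the epithelial count of 0 in the 2 settings where neither epithelial gene could be counted. The number of genes marked in the control list only (4) was 2 with no window and 2 when the widest peaks were taken in equal number from each list. The latter setting drops the control peak of Cdh10 for its width and so gives 1 gene marked in the 2KO list only in place of 0. With the listed start itself under a peak, which can be asked of 22 genes, 7 were marked in the control list, 5 in the 2KO list, 5 in both and 2 in the control list only. The neural classical cadherins marked in the control list, and those marked in both, numbered 5 to 7 under the 9 settings. In the 2 settings that need a listed start, 10 of these 13 genes could be counted. The epithelial genes numbered 0, but Cdh1 and Cdh3 have no listed start and could not be counted in those 2 settings. Bases of control peaks under 2KO peaks ranged from 53.8 to 79.4%. Depth per library is unknown, so no limit of detection can be given.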

Other observations

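Many of the peaks at cadherin and protocadherin genes also covered annotated long non-coding RNA genes. Of the 15 control peaks at these genes, 9 overlapped a lncRNA (60.0%), beside 490 of 2010 control peaks at the ends of any protein-coding gene (24.4%). They included Gm46513 at Cdh6, A330008L17Rik at Cdh8, C030047K22Rik at Cdh10, 2610316D01Rik at Pcdh10 and Gm26851 at Pcdh19. At Pcdh10 the control peak overlapped 2610316D01Rik, and the 2KO peak, which begins 264 bp after the Pcdh10 start, overlapped no other annotated gene. At Cdh6, Cdh8 and Cdh10 the peaks of both lists overlapped the lncRNA. Peak widths and the lengths of these RNA genes were not matched. No peak at the 14 marked genes lay within 1 kb of another protein-coding gene.

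The clustered protocadherins, which the naming rule leaves out, were counted in the same way. Of 57 genes, 1 was marked in the control list (Pcdhac2, 7.38 kb) and 1 in the 2KO list (Pcdhac1, 4.11 kb), with 0 marked in both. Each share was 1.75% (0.310 to 9.29), while the control peaks marked 10.1% of all genes and the 2KO peaks 6.63%. The interval treats the 57 genes as independent. Genes of a cluster lie side by side and need not be, and Pcdhac1 and Pcdhac2 both lie on chromosome 18. The interval is thus likely too narrow, and the shares do not separate these genes from protein-coding genes in general. The median length of the 14 marked cadherin and protocadherin genes was 135.6 kb (range 4.54 to 1554 kb) and that of the 20 genes marked in neither list 78.2 kb (range 6.65 to 1185 kb).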
